A study of Homo sapiens with 2 samples.

Results

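C1Q-positive macrophages were examined in the single-cell transcriptomes of 2 blood-generating heart-forming organoids (BG-HFOs), named 32.7 and 33.10 and analysed on day 14. BG-HFOs are aggregates of human pluripotent stem cells, here the embryonic stem cell line hES3 NKX2.5-eGFP, that are embedded in Matrigel and led to form heart muscle, endothelium and blood together. Stepwise changes of WNT signalling and a mix of haemato-endothelial cytokines drive this, and both organoids had the same cell line, reporter allele and treatment, so no treated or control group existed. Each organoid gave 1 library, and both came from 1 line, so a p-value below describes the spread between 2 organoids of that line and nothing wider. Whether they came from separate differentiations is not given in the sources used here. A barcode counted as a macrophage when it had 500 to 9000 genes and under 15% mitochondrial UMIs (unique molecular identifiers, each counting 1 captured transcript), at least 5 UMIs of C1QA, C1QB and C1QC together and at least 1 UMI of PTPRC (CD45). It also had to hold no CDH5 UMI, no EPX UMI, at most 3 MYH6 and at most 2 MPO UMIs, and PF4 under 2000 CPM (counts of UMIs scaled to 1000000 per cell). These limits keep out endothelial cells, eosinophil precursors, heart muscle cells, neutrophil precursors and megakaryocytes. The members were thus selected on their C1Q, PTPRC, CDH5, EPX, MYH6, MPO and PF4 UMIs, and none of these genes is reported as a finding. The rule found 643 cells among 36814 barcodes, of which 34749 passed the limits on genes and mitochondrial UMIs.

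C1q is the recognition part of the first complement component. Its 3 chains are made mainly by macrophages, in which it marks dying cells and debris for uptake. Macrophages of early embryos arise outside the bone marrow, settle in tissues such as the heart, brain lining and liver, divide there, and clear dead cells and iron-rich debris through scavenger receptors. Monocytes are circulating cells that carry S100 proteins and lysozyme and can enter tissue to become macrophages.

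Organoid 32.7 held 429 macrophages in 16866 barcodes, a share of 2.54% (exact binomial 95% interval 2.31 to 2.79%). Organoid 33.10 held 214 in 19948 barcodes, a share of 1.07% (0.934 to 1.23%). The shares differed beyond counting error, and their mean was 1.81% ± 1.04 (SD, n = 2). The intervals cover counting error only. The libraries held 191152562 and 233818881 UMIs, and the median macrophage had 15435 UMIs and 4265 genes in organoid 32.7 and 15107.5 UMIs and 4667.5 genes in 33.10. Depth per macrophage was thus alike in the 2 libraries. In all, 100 barcode sequences occurred in both libraries, and 1 macrophage of organoid 33.10 carried such a barcode.

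The other classes were gated in the same way, with at most 1 C1Q UMI. MPO-high neutrophil-lineage cells (at least 10 MPO UMIs) numbered 187 and 46. C1Q-negative monocytic cells (at least 1 UMI of CD14 or FCN1 and at most 2 of MPO) numbered 102 and 29, with a median of only 6342 and 10642 UMIs. Both classes had to carry PTPRC, and 1 further myeloid class, with EPX, held 53 and 21 cells. Megakaryocytic, erythroid, endothelial, cardiomyocyte, endodermal and mesenchymal cells made up the rest, for 10 classes in all. Under these gates, which ask for unlike numbers of UMIs, the macrophages were the most numerous of the 4 myeloid classes in both organoids. Barcodes with 0 C1Q UMIs that met every other macrophage limit numbered 267 and 273, and most of them were in none of the 4 classes.

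The 3 genes that chose the cells lie side by side on chromosome 1 of GRCh38, all on the plus strand, within 26.6 kb. C1QA spans chr1:22635077-22639678, C1QC chr1:22643014-22648110 and C1QB chr1:22652762-22661637. The sequence around their starts is shown because 1 of the transcription factors reported below, MAF, binds DNA through a core whose half-site is TGCTGA, read as TCAGCA when it lies on the other strand. The 300 bases that RefSeq (GRCh38.p14) places from 250 before to 50 after a transcript start are given for 3 genes. These are C1QA (chr1:22636378-22636677, the second of 2 starts), C1QB (chr1:22652986-22653285) and SPP1 (chr4:87975464-87975763), a secreted product abundant in a part of these cells. All 3 are on the plus strand, and capitals mark the half-site.
C1QA: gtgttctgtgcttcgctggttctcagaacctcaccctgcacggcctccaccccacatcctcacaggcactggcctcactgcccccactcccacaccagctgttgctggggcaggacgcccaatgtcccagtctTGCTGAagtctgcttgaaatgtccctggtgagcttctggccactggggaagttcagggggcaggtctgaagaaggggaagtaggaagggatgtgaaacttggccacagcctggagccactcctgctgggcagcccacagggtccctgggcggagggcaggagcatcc
C1QB: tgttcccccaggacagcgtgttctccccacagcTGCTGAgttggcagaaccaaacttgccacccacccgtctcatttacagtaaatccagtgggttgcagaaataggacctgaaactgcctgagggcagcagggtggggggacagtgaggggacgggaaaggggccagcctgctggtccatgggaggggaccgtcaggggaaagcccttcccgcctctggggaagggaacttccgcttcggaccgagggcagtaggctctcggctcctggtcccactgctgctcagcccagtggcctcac
SPP1: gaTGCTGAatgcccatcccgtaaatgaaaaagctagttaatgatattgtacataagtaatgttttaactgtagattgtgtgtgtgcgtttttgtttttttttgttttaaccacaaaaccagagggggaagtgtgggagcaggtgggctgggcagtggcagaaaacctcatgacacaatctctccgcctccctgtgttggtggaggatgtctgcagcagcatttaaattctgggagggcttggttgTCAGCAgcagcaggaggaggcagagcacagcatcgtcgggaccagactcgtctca
The half-site stood 117 bases before this RefSeq start of C1QA, 217 before that of C1QB and at 248 and 5 bases before that of SPP1. The gene spans given above are from GENCODE release 44, and the marked half-sites of C1QA and C1QB lie inside those spans. The first start of C1QA (chr1:22636213-22636512) and the promoter of CD14 held none, and the promoters of CD163 and MAF held 1 each. Across all 35116 promoters of this length, 17.3% held at least 1 such match on either strand, and the match is a description of letters, not of binding. C1QC is named only.

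Since C1Q chose the cells, its level is a description. The C1Q sum per macrophage ran from 5 to 293 UMIs in organoid 32.7 (median 33) and from 5 to 237 in 33.10 (median 24). C1QA was found at 953 and 624 CPM (UMIs summed over all macrophages of organoid 32.7 and of 33.10, in this order throughout, as a share of 1000000), C1QB at 1092 and 638 and C1QC at 974 and 636. All 3 genes were found in 354 of the 429 and 168 of the 214 cells. Just inside the limit, the 19 and 8 cells with a sum of 5 had CD14, the lipopolysaccharide co-receptor, at 143 and 409 CPM and SPP1, the secreted glycoprotein osteopontin, at 990 and 1666. Just outside, the 24 and 11 cells with a sum of 4 that met every other limit had CD14 at 237 and 243 and SPP1 at 4371 and 4798.

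Of 711 and 293 barcodes that passed the limits on genes and mitochondrial UMIs with 5 or more C1Q UMIs, 124 and 36 held a CDH5 UMI. A further limit each was missed by 100 and 17 with no PTPRC, 67 and 17 over the MYH6 limit, 29 and 7 over the MPO limit, 21 and 10 over the PF4 limit and 8 and 4 with EPX, with overlaps. No doublet caller was run, and the share of these barcodes that hold more than 1 cell was not tested.

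The label was set beside 15 macrophage markers, of which the 3 C1Q genes and CD14 were used in the gates and are no check. Of the 11 others, 10 had their highest level of the 10 classes in the macrophages of both organoids. The other classes were held to at most 1 C1Q UMI, so the rank of genes that go with C1Q is tied to the gates. This ranking is a description and cannot test the label. The share of all genes that rank highest in macrophages is not given here. CD14 stood at 522 and 616 CPM, CD163, the haemoglobin scavenger receptor, at 222 and 248, MRC1, the mannose receptor, at 456 and 548, CSF1R, the receptor for the main macrophage growth factor, at 272 and 236, and AIF1, an actin-binding protein of macrophages, at 1865 and 1495. SPP1 stood at 2246 and 1435, with no UMI in 58.0% and 50.9% of macrophages. The 1 exception among the 11 was MSR1, a scavenger receptor of mature macrophages, at 1.0 and 4.2 CPM. Barcodes with 2, 3 or 4 C1Q UMIs that met every other macrophage limit were in no class. Their SPP1 stood at 7021, 3860 and 4371 CPM in 32.7, above the macrophages. In 33.10 it stood at 159, 1047 and 4798, above them only at 4 UMIs. CD163 and MRC1 were lower in these barcodes than in the macrophages in both organoids. The plot of marker levels shows the markers by class.

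Markers of other tissues were also found in the macrophages. The 12 endothelial markers summed to 258 and 222 CPM, led by EGFL7, with CDH5 at 0 by the rule. The 11 cardiomyocyte markers summed to 327 and 203 (TNNT2 most abundant) and the 12 mesenchymal markers to 296 and 172 (COL3A1). Of the 10 foregut markers, ALB, HNF4A and FOXA2 were at 0 and the sum was 50.5 and 33.4. The 12 erythroid markers differed most between the organoids, at 835 and 2686 CPM, with the fetal globin HBG2 at 212 and 1165. The 12 megakaryocyte markers summed to 244 and 359 (PPBP most abundant, 91.4 and 133), and the 12 lymphoid markers to 479 and 456, of which NKG7 alone gave 400 and 389. The lymphoid list was left out of the next count. Cells in which the other lists together took 1% or more of the UMIs numbered 18 of 429 and 15 of 214 macrophages (the latter 7.01%), against 27 (26.5%) and 7 (24.1%) of the monocytic cells. Free RNA was not removed from the counts, and its part in these values was not tested.

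Both ferritin chains, which store iron, were among the 5 most abundant nuclear transcripts outside the ribosomal genes, with MALAT1, TMSB4X and ACTB. FTL, the ferritin light chain, was the most abundant nuclear transcript outside the ribosomal genes at 29637 and 28224 CPM, and FTH1, the heavy chain, stood at 6145 and 5222. S100A9, a calcium-binding protein of myeloid cells, reached 3994 and 3604. The abundant genes also included RBPJ, the DNA-binding partner of NOTCH receptors (2216 and 1838 CPM), and NRG1, a growth factor for ERBB receptors best known in the heart from the endocardium (1256 and 1257). Both were picked out after their values were seen. NRG1 was at 852 and 812 CPM in monocytic cells, 192 and 157 in neutrophil-lineage cells, 45.8 and 52.8 in mesenchymal and 35.4 and 38.9 in endothelial cells. The macrophage level of NRG1 did not pass the test against monocytic cells (log2 fold change 0.61 ± 0.18 SE, adjusted p = 0.0902, or 0.0345 with the organoid as a replicate block) and passed it against neutrophil-lineage cells (2.81 ± 0.20, adjusted p = 2.3e-05, edgeR quasi-likelihood test). RBPJ passed both (1.69 ± 0.37, adjusted p = 0.0325, and 2.55 ± 0.38, adjusted p = 0.00148), but lost the first under 3 alternatives.

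To find where macrophages differ from the nearest myeloid cells, UMIs were summed per class and organoid and the 4 myeloid classes were fitted together with edgeR. Genes used in any gate were left out of the calls, and all other genes were read in the same cells that the gates had picked. Both comparisons use the same macrophage sums, so they are not independent. Of 10818 genes tested, 178 (1.65%) were higher and 326 (3.01%) lower in macrophages than in monocytic cells at an adjusted p under 0.05. With the organoid as a replicate block, which takes up the differences that classes of 1 organoid share, the counts were 301 and 537, and blocked counts of lists are given below beside those without it. In neither comparison did a named call end with the block. Against neutrophil-lineage cells 828 (7.65%) were higher and 675 (6.24%) lower. The median log2 fold change over all genes was 0.00 and -0.05. The monocytic class was small, shallow and held more barcodes with markers of other tissues, and a gate of 1 UMI does not show it to be 1 cell type. Without the barcodes of 1% or more such UMIs, the counts against it were 106 higher and 172 lower. A gene is said to have lost its call where it did not pass under at least 1 of the alternative settings.

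Many uptake receptors were higher in macrophages than in monocytic cells. Of 19 scavenger and uptake receptors tested, 10 were higher and 1 lower (TYRO3), with a median log2 fold change of 1.54 (11 higher and 1 lower with the block). CD163 stood at 222 and 248 CPM in macrophages against 21.5 and 46.3 in monocytic cells, a 7.82-fold difference (log2 2.97 ± 0.29 SE, adjusted p = 0.0022). MERTK, which binds bridging proteins on dying cells, was at 99.2 and 122 against 14.0 and 15.4 (log2 2.93 ± 0.26, adjusted p = 0.00137). In both genes the classes were apart in each organoid. TIMD4, a phosphatidylserine receptor of resident macrophages, was at 68.6 and 96.8 against 8.59 and 10.3 (log2 3.16 ± 0.35), and CD36, a receptor for oxidised lipids, at 482 and 497 against 104 and 110 (log2 2.21 ± 0.25). MRC1, STAB1, FOLR2, AXL and SIGLEC1 were also higher, and LYVE1, the hyaluronan receptor of border-lining macrophages, had 259 UMIs in macrophages and 1 in monocytic cells. STAB1, AXL, SIGLEC1 and TYRO3 lost their calls.

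Genes of macrophages that reside in the heart and at tissue borders share many members with the uptake receptors. Of 13 tested, 8 were higher (6 of these, CD163, FOLR2, LYVE1, MRC1, STAB1 and TIMD4, are among the 10 uptake receptors above, and 12 were higher with the block), none passed in the other direction, and the median log2 fold change was 2.33. Among genes linked to liver macrophages, 2 of 7 tested were higher (FOLR2 and TIMD4; 3 with the block), while CD5L, CLEC4F, LILRB5 and MARCO did not reach the count filter. Among those linked to microglia, 3 of 11 were higher (CSF1R, GPR34 and TREM2) and SALL1, SIGLEC11 and TMEM119 did not reach the filter. CX3CR1, the fractalkine receptor, was at 51.5 and 54.0 CPM against 30.1 and 33.4 (adjusted p = 0.115). FOLR2 and TIMD4 stand in the uptake, heart and border, and liver lists alike. CSF1R, STAB1 and DAB2, an endocytic adaptor of the heart and border list, lost their calls.

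Receptors for antibody-coated targets formed the next group. Of 13 Fc receptors and adaptors tested, 5 were higher (FCGR1A, FCGR2A, FCGR2B, FCGRT and TREM2) and 1 lower (CLEC12A, an inhibitory lectin). FCGR2A was at 353 and 490 CPM against 148 and 131 (log2 1.59 ± 0.24, adjusted p = 0.00707). FCGR3A, which is CD16, was at 457 and 428 against 241 and 105 and did not pass (adjusted p = 0.065), but did with the block (adjusted p = 0.00965), where 8 of the 13 were higher. Of 14 other complement components and receptors tested, 1 was higher (C3AR1, the anaphylatoxin C3a receptor) and 4 lower (CD46, CD55, CFP and CR1). CD46 and CD55 protect cells from complement, CFP is properdin, and CR1 takes up opsonised particles. With the block 3 were higher and 6 lower. FCGR2B, CLEC12A, C3AR1, CD46 and CD55 lost their calls.

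Degradation and iron genes moved in part. Of 30 lysosome genes, 4 were higher: CTSB, CTSL and LGMN, which are proteases, and NPC2, a cholesterol carrier. CTSB was at 1022 and 1066 CPM against 287 and 216 (log2 2.05 ± 0.22, adjusted p = 0.0022), whereas the protease CTSD was at 240 and 260 against 291 and 208 (log2 -0.01 ± 0.30, adjusted p = 0.996). The list median was 0.35. Of 14 iron genes 4 were higher, namely CD163, both ferritin chains and BLVRB, a biliverdin reductase. FTL differed 1.95-fold (log2 0.96 ± 0.22, adjusted p = 0.0338) and FTH1 2.01-fold (log2 1.01 ± 0.19, adjusted p = 0.0186). Of 18 lipid genes, 4 were higher (ABCA1, APOC2, CD36 and FABP5) and 2 lower, among them ACSL1, which activates fatty acids. With the block 5 lysosome and 5 iron genes were higher, and 5 lipid genes were higher and 3 lower. Calls were lost for CTSL, LGMN, NPC2, FTL, FTH1, APOC2 and ACSL1.

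Transcription factors differed in both directions. Of 23 tested, 3 were higher, among them MAF and IRF8, and CEBPE and MYB were lower (3 lower with the block). MAF, which drives macrophage identity, was at 390 and 414 CPM against 50.5 and 72.0 (log2 2.78 ± 0.27, adjusted p = 0.00213). MYB, a factor of blood progenitors, was at 6.5 and 15.6 against 39.7 and 59.1 (log2 -2.15 ± 0.45, adjusted p = 0.0286). SPI1, which encodes PU.1 and is shared by all myeloid cells, was at 367 and 353 against 331 and 152 and did not pass (adjusted p = 0.363). IRF8, CEBPE and MYB lost their calls under 1 alternative each.

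Monocyte genes ran the other way, with 1 of 14 tested higher (CLEC10A), 5 lower (6 with the block) and a list median of -1.49. The lower genes included CD52, CLEC12A, LYZ and S100A12. S100A12 was at 10.95 and 10.9 CPM against 654 and 172 (log2 -5.29 ± 0.66, adjusted p = 0.00415). The abundant S100A8 (1832 and 1233 against 12270 and 8265) and S100A9 (3994 and 3604 against 15940 and 11570) did not pass, with adjusted p = 0.185 and 0.266. CLEC10A, CD52, CLEC12A and LYZ lost their calls. Neutrophil granule genes lay further down in the same comparison, with 3 of 12 lower (BPI, CLC and MS4A3), none higher and a list median of -2.85. With the block 4 were lower and with DESeq2 5, and CLC and MS4A3 lost their calls. CLC stood at 43.0 and 260 CPM in the monocytic class.

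The 10 genes with the largest increases over monocytic cells were ABCG2, TREM2, HRH1, CMKLR1, MS4A7, FOLR2, SPP1, CRYBB1, APOC2 and NCKAP5. ABCG2, an efflux pump, had 587 UMIs in macrophages and 1 in monocytic cells, a ratio of 66.2 with a counting interval of 11.8 to 2618. CMKLR1, the chemerin receptor, was at 47.1 and 48.0 CPM against 3.2 and 2.6 (log2 3.95 ± 0.47, adjusted p = 0.0026). SPP1 was at 2246 and 1435 against 170 and 121 (log2 3.65 ± 0.86, adjusted p = 0.0411). It lost its call under 5 of the alternative settings, as APOC2 and CRYBB1 did under fewer. Of the SPP1 UMIs in macrophages of 32.7, 92.0% lay in 43 cells. The 10 with the largest decreases included CLC, BPI, RGL4, S100A12, PADI4, HP, AL139042.1, SLCO4C1 and DACH1, of which CLC and DACH1 lost their calls. Several of these are granule or neutrophil genes: PADI4, the enzyme behind chromatin release by neutrophils, was at 4.4 and 3.7 CPM against 187 and 95.1 (log2 -5.13 ± 0.36, adjusted p = 0.00044).

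Markers of other tissues were lower in macrophages than in monocytic cells where they passed the test. These were ESAM and PECAM1 of 8 endothelial, TTN of 6 cardiomyocyte, 4 of 9 mesenchymal (COL1A1, COL1A2, TBX18 and TCF21), and NFE2 and THBS1 of 10 megakaryocyte markers tested. The same lists took more UMIs in monocytic than in macrophage barcodes, as given above, and their part in the 326 lower genes was not tested beyond the counts without such barcodes. ESAM, TTN, NFE2 and the 4 mesenchymal genes lost their calls, and with the block 3 of the 6 cardiomyocyte, 5 of the 9 mesenchymal and 3 of the 10 megakaryocyte markers were lower. None of 11 erythroid markers passed with edgeR (1 had an unadjusted p under 0.05), and 1 was lower with DESeq2 and with the block.

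Against neutrophil-lineage cells the uptake, heart and border, Fc, lysosome and matrix lists had larger positive medians than against monocytic cells. The monocyte list median went from -1.49 to -0.83, the endothelial marker median from -1.34 to -0.62 and the complement median from -0.50 to 0.55. These differences between the comparisons were not tested. Scavenger and uptake receptors were higher in 15 of 19 tested, and the heart and border list in 13 of 13, with a median log2 fold change of 5.90 (5.55 with LYVE1, which had no UMI in neutrophil-lineage cells, at its bound). MRC1 was at 456 and 548 CPM against 5.5 and 5.8 (log2 6.43 ± 0.29, adjusted p = 3e-06). CD163 had 2705 UMIs against 2 and LYVE1 259 against 0, the latter at least 41.0-fold higher when set against 3 counts over both organoids. Lysosome genes were higher in 16 of 30, Fc receptors and adaptors in 11 of 13 (CLEC12A was lower), and matrix genes in 9 of 15. The higher counts were 19, 11 and 9 with the block and 15, 10 and 7 with DESeq2. In these lists ATP6V0D1, TFE3, CD33, SIRPA, CLEC12A, MMP9 and PLAUR lost their calls, as did SCARB2, PLTP and SELENOP of the uptake and heart and border lists. Against monocytic cells 0 of the 15 matrix genes passed with edgeR (9 had an unadjusted p under 0.05), 1 was lower with DESeq2, and 2 were higher and 2 lower with the block. F13A1, a transglutaminase of resident macrophages, was at 792 and 507 against 3.8 and 7.7 (log2 7.06 ± 0.80, adjusted p = 0.00028).

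Granule genes marked the other side. Of 12 tested, 10 were lower in macrophages and none higher, with 8 lower under DESeq2. The neutrophil-lineage cells were gated on at least 10 MPO UMIs and the macrophages on at most 2. Granule genes that go with MPO are thus tied to the gates, and their lower level is a description. The 10 include CLC, at 2.1 and 0.74 CPM against 37.8 and 0, which was lower in organoid 32.7 alone (log2 0.78 without 32.7). CLC and RNASE3 lost their calls. PRTN3, a serine protease, was at 8.7 and 7.7 CPM against 2673 and 2580 (log2 -8.32 ± 1.55, adjusted p = 0.0056). AZU1 was at 5.3 and 8.7 against 480 and 352 (log2 -5.97 ± 0.78, adjusted p = 0.00065). The defensin DEFA3, whose reads can be shared with near-identical copies, and SERPINB10 had no UMI in macrophages. MYB and CEBPE were lower here as well. The response genes that cell dissociation can raise were higher in 8 of 14 tested (among them FOS, JUN and ATF3). In the comparison with monocytic cells 0 of 14 passed with edgeR, 4 had an unadjusted p under 0.05, and 1 passed with DESeq2 and 1 with the block. FOS and ATF3 lost their calls against neutrophil-lineage cells. Their part in the other differences was not tested.

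**Figure D1:**
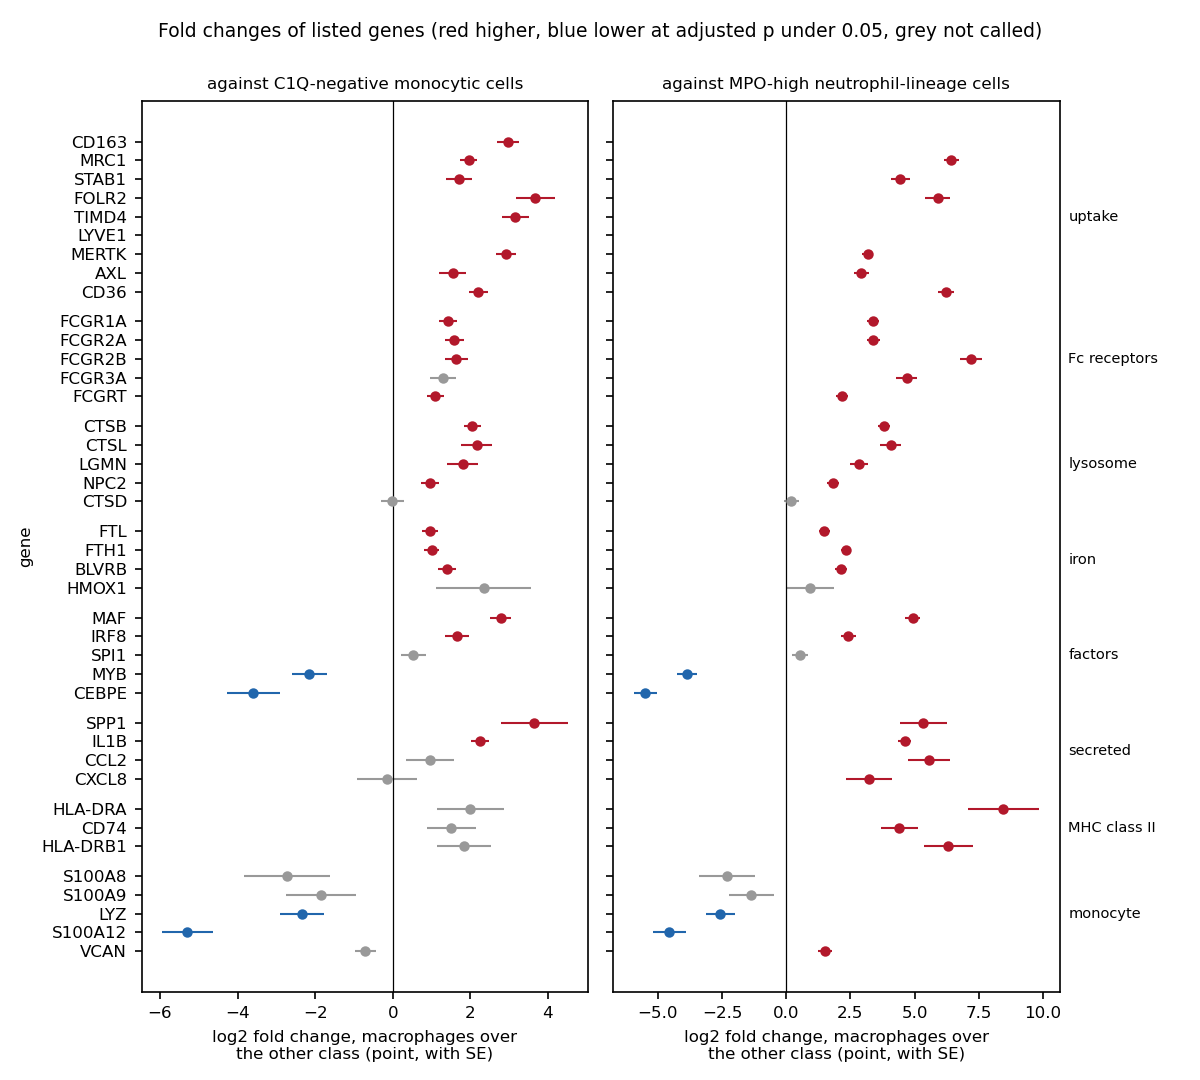
Fold changes of listed genes in macrophages against monocytic cells (left) and neutrophil-lineage cells (right) on the log2 scale, with SE from the edgeR fit over 2 organoids. MRC1 lies at 1.96 and 6.43, CEBPE and MYB lie to the left of 0 in both panels, and no point is drawn where a class held 3 UMIs or fewer (LYVE1 in both panels, CD163 and TIMD4 on the right).

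Antigen presentation by MHC class II, which displays peptides to CD4 T cells, set macrophages apart from neutrophil-lineage cells. Of 12 tested genes 11 were higher (10 with DESeq2), of which CD4 and HLA-DMB lost their calls. HLA-DRA was at 536 and 128 CPM against 1.1 and 0 (log2 8.46 ± 1.40, adjusted p = 0.00276). Against monocytic cells the result depended on the fit. With class as the only term none of the 12 passed with edgeR or DESeq2, 6 had an unadjusted p under 0.05, all higher in macrophages, and the list median was 1.36. With the organoid as a block 6 were higher (CD74, CIITA, HLA-DMA, HLA-DPA1, HLA-DRA and HLA-DRB1) and none lower. There HLA-DRA was at 141 and 0 and CD74, the invariant chain, at 190 and 30.9, against 506 and 188 in macrophages (adjusted p = 0.215 for HLA-DRA and 0.196 for CD74, and 0.00697 and 0.0236 with the block). Both genes were higher in macrophages within each organoid.

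Cells were compared at equal depth by drawing 3000 UMIs from each, which left out 19 and 10 shallower macrophages. At least 2 UMIs of 5 MHC class II genes were then found in 278 of 410 macrophages (67.8%, exact 95% interval 63.0 to 72.3%) of organoid 32.7 and 59 of 204 (28.9%, 22.8 to 35.7%) of 33.10. Without this step the shares were 86.0% and 65.9%. In neutrophil-lineage cells the thinned shares were 0 of 186, which allows up to 1.61% (3 counts of the total, as for every count of 0 here), and 1 of 46 (2.17%), and 14.4% and 8.70% unthinned. In monocytic cells they were 24.4% (15.8 to 34.9%) and, from 26 cells, 7.69% (0.946 to 25.1%), and 39.2% and 27.6% unthinned. These intervals cover counting error within 1 library and are no test between classes. The macrophage share was the highest of the 3 classes in each organoid. CD163 was found in 37.8% and 46.6% of thinned macrophages (66.0% and 79.4% unthinned) against 0 of 186 and 0 of 46 neutrophil-lineage cells, which allows up to 1.61% and 6.52%. CD14 was found in 57.6% and 67.2% of thinned macrophages (78.1% and 89.3% unthinned) and in 2.69% and 2.17% of thinned neutrophil-lineage cells. Thinned shares of CD163 and CD14 in monocytic cells are not given here, and those cells also held CD163, at the levels given above.

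The difference in MHC class II between the organoids is a comparison of 1 sample with 1 and has no replicate. Of 13119 genes with 10 or more UMIs in the macrophages of each organoid, 187 (1.43%) were at least 2-fold higher in 32.7 and 255 (1.94%) at least 2-fold higher in 33.10. Of the 14 MHC class II genes so measured, 8 were at least 2-fold higher in 32.7 and none in 33.10, with a median log2 difference of 1.38 beside -0.08 over all genes. HLA-DRB1 stood at 270 and 74.8 CPM in macrophages, but at 14.6 and 15.9 in endothelial and 8.9 and 11.5 in mesenchymal cells. CD74 differed the same way in monocytic cells (190 and 30.9 CPM). Markers of other tissues also lay higher in the macrophages of 32.7, with 7 of 8 cardiomyocyte markers higher there (3 at least 2-fold, median log2 0.71) and 6 of 9 mesenchymal markers (2 at least 2-fold, median 0.70). Their part in the MHC class II difference was not tested. CIITA, the master regulator of these genes, stood at 21.0 and 10.6 in macrophages.

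Interferon-stimulated genes ran the opposite way. Of 18 measured in macrophages, 9 were at least 2-fold higher in 33.10 and none in 32.7 (median log2 -0.98). IFI27 stood at 283 and 1503 CPM and ISG15, a ubiquitin-like protein, at 491 and 1142. The same direction was seen outside the macrophages, with a list median of -1.75 in endothelial cells, -1.80 in cardiomyocytes, -1.49 in mesenchymal cells and -1.22 in neutrophil-lineage cells, and with smaller medians of -0.53 in monocytic and -0.35 in endodermal cells. Erythroid markers moved the same way in macrophages, where 8 of 11 were at least 2-fold higher in 33.10 (median log2 -1.70), and in endothelial (-1.40) and mesenchymal cells (-1.84), but not in monocytic (0.06) or erythroid cells (0.01), with -0.25 in endodermal cells. Their part in these differences was not tested. Sampling, culture and library cannot be told apart here.

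**Figure D2:**
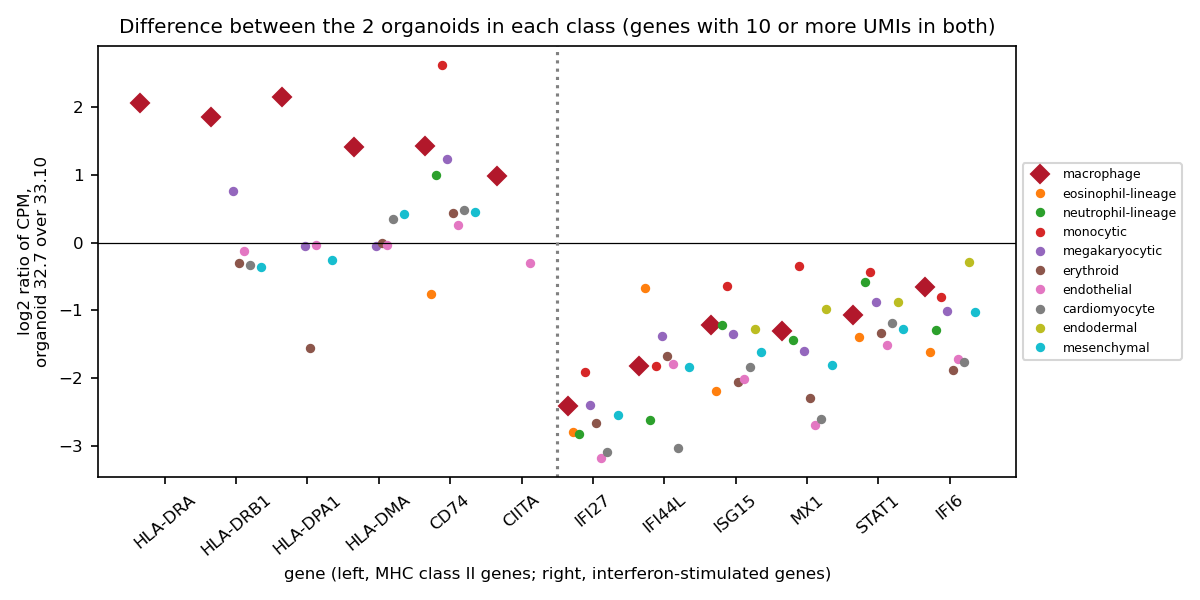
Log2 ratio of gene levels in organoid 32.7 over 33.10 by cell class for MHC class II and interferon-stimulated genes with 10 or more UMIs in both organoids. In macrophages HLA-DRA lies at 2.07 and IFI27 at -2.41, and ISG15 is below 0 in every class measured.

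Secreted factors differed in the share of macrophages with a UMI. SPP1 had UMIs in 42.0% and 49.1% of macrophages (31.5% and 34.8% at 3000 UMIs per cell), and at that depth in 3.76% of neutrophil-lineage cells of 32.7 and 0 of 46 of 33.10, which allows up to 6.52%. The 43 and 22 cells with the most SPP1 held 92.0% and 78.1% of all its UMIs in macrophages. CCL3, a chemokine for monocytes and T cells, was found in 9.3% of cells in each organoid. CXCL8, a neutrophil chemokine, was found in 14.0% and 14.5%, where the 43 cells with the most held 98.9% of its UMIs in 32.7. The shares of CCL3 and CXCL8 are unthinned and have no background share beside them, and the part of free RNA was not tested. CXCL10, an interferon-induced chemokine, was found in 4 of 429 cells of 32.7 and in 0 of 214 of 33.10, which allows up to 1.40% of cells with a UMI and sets no limit on cells that express the gene. CCL2, the monocyte chemokine, was found in more cells, with UMIs in 43.8% and 65.9% of cells (20.2% and 36.8% at 3000 UMIs per cell, where neutrophil-lineage cells had 4.30% and 2.17% and monocytic cells 4.65% and 26.9%) and a summed level of 174 and 391 CPM. None of 9 chemokines tested passed against monocytic cells with edgeR or DESeq2, although 3 had an unadjusted p under 0.05 and CCL4 and CCL13 were higher with the block. Against neutrophil-lineage cells 5 passed (CCL2, CCL3, CCL4, CCL13 and CXCL8), 3 with DESeq2 and 7 with the block, and CCL3 and CXCL8 lost their calls.

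Of 17 cytokines and growth factors tested against monocytic cells, IL1B, SPP1 and NRP1 were higher and HGF and WNT5B lower, of which only IL1B kept its call under every alternative. IL1B, an inflammatory cytokine, was at 154 and 138 CPM against 32.2 and 28.3 (log2 2.25 ± 0.24, adjusted p = 0.0022). CSF1 and IL34, the ligands of CSF1R, were low in macrophages, at 9.6 and 1.7 and at 0.3 and 0 CPM. Of the 10 classes CSF1 was highest in mesenchymal cells, at 23.9 and 25.8. IL34 was under 1.1 CPM in every class.

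**Figure D3:**
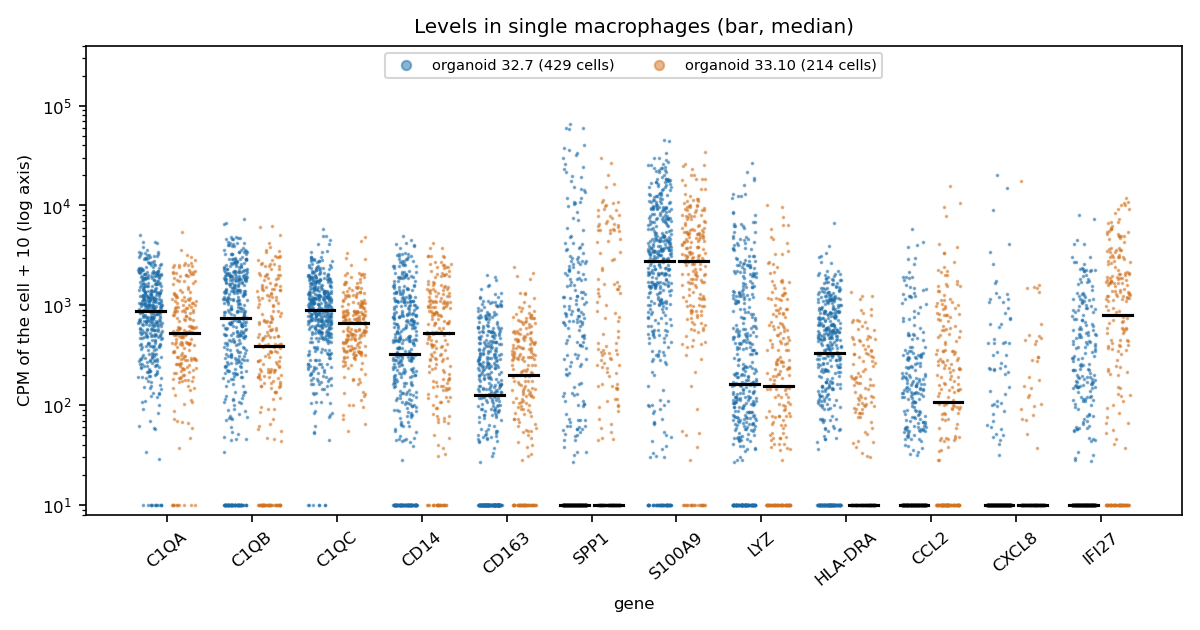
Levels in single macrophages by organoid, in CPM of each cell, drawn with 10 added on a log axis; the line is the median. CD14 has a median of 313 and 522, whereas the median of SPP1 is 0 in both organoids and its highest cell reaches 65417 in 32.7 and 29603 in 33.10.

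The 43 and 22 cells with the most SPP1 for their depth were set beside the cells with no SPP1 UMI, as a description of cells split on 1 gene, with no test. Of 11855 genes with 10 or more UMIs in these cells of each organoid, 303 (2.56%) were at least 2-fold higher and 391 (3.3%) at least 2-fold lower in the SPP1-rich cells of both organoids. Of 19 lipid genes measured, 7 were so higher (ABCA1, ABCG1, APOE, FABP3, LPL, PLIN2 and PLTP) and 1 lower. Of 30 lysosome genes 4 were higher (CTSB, CTSD, CTSL and GPNMB) and none lower. Other lists moved too, with 5 of 8 chemokines, 5 of 16 matrix genes and 4 of 13 heart and border genes higher and none lower. Markers of other cells also moved with this split. Lower were 6 of 9 megakaryocyte, 3 of 6 endothelial, 2 of 7 mesenchymal and 3 of 6 neutrophil granule genes. Of 16 dissociation genes, 3 were higher (HSPA6, IER3 and JUN). The part of these markers and dissociation genes in the other differences was not tested. TREM2, a lipid receptor, was at 119 and 184 CPM against 11.5 and 14.8, and GPNMB, a lysosomal glycoprotein, at 38.8 and 64.9 against 2.4 and 1.3. CTSL was at 952 and 1416 against 142 and 254, and CTSB at 2000 and 1967 against 607 and 590. LYZ ran the other way, at 248 and 119 against 1465 and 1014, as did S100A8 (979 and 148 against 2141 and 1705) and HLA-DRA (306 and 14.4 against 628 and 164). The median depth was 16283 UMIs in the top and 15959 in the SPP1-free cells of 32.7, but 10524.5 against 16057 in 33.10, and its part in these values was not tested.

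Levels were also set out by the amount of C1Q per cell, as a description, since C1Q chose the cells. Within each organoid, cells were ranked by C1Q in CPM and cut into 3 groups of equal size. From the lowest to the highest group CD14 went from 205 to 856 CPM in 32.7 and from 425 to 980 in 33.10. FOLR2 went from 17 to 129 and from 23.4 to 94.9, F13A1 from 291 to 1282 and from 377 to 739, and MERTK from 47.0 to 146 and from 74.5 to 171. LYZ went down, from 1971 to 193 and from 698 to 302, and SPP1 from 3035 to 1000 and from 1883 to 626. The limit of 5 C1Q UMIs admits a low C1Q level only in deep cells, so the grouping is tied to depth by the rule. In the lowest group the median depth was higher, at 18055 and 20364 UMIs against 14697 and 11575 in the highest, and its part in these values was not tested.

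**Figure D4:**
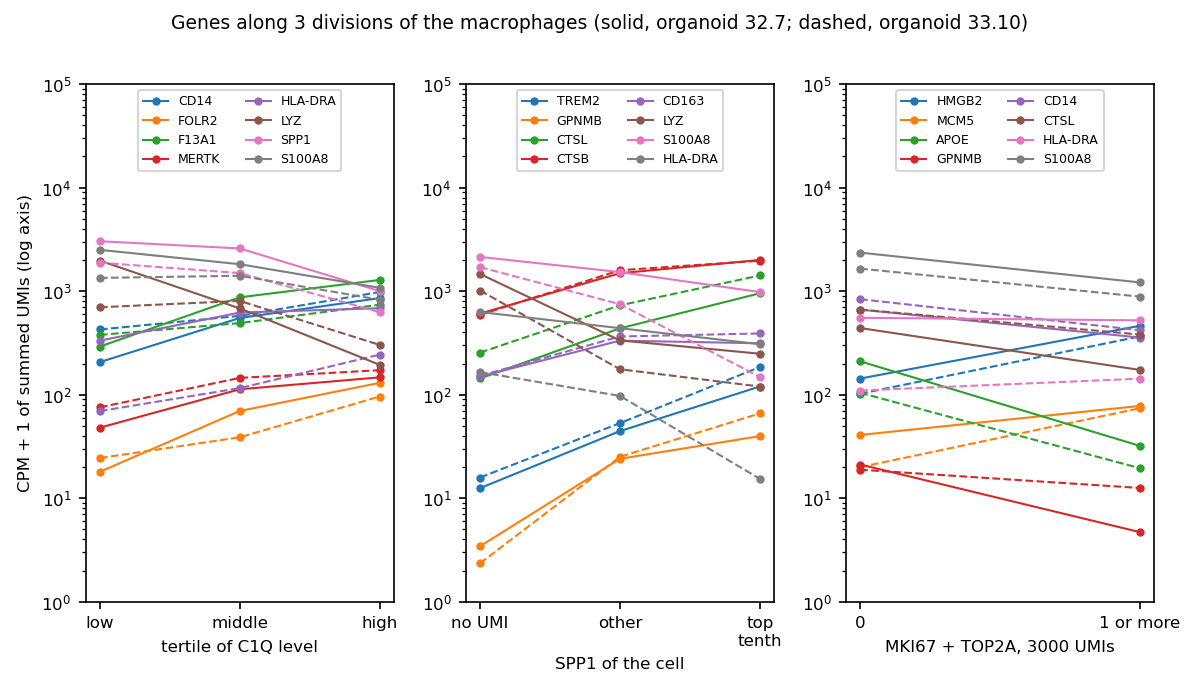
Levels of selected genes in macrophages divided by C1Q level, by SPP1 or by MKI67 and TOP2A, in CPM summed per organoid, drawn with 1 added on a log axis (solid, 32.7 and dashed, 33.10). CD14 is higher in the groups with more C1Q (856 and 980 at the top) and LYZ lower (193 and 302), while CTSL is highest in the SPP1-rich cells (952 and 1416).

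Transcripts of dividing cells were common. At 3000 UMIs per cell, MKI67 or TOP2A was found in 143 of 410 macrophages (34.9%, exact 95% interval 30.3 to 39.7%) and 88 of 204 (43.1%, 36.2 to 50.2%). The unthinned shares were 52.2% and 54.2%. In neutrophil-lineage cells the thinned shares were 51.6% and 60.9%, and in monocytic cells 33.7% and 23.1%, the latter from 26 cells. None of these classes should lack the genes, so no background level was available. Of 20 cell cycle genes tested, TUBB was higher in macrophages than in monocytic cells and TYMS lower than in neutrophil-lineage cells (3 were with the block), and no other passed. TUBB and TYMS lost their calls. Macrophages with MKI67 or TOP2A had a median of 22938 and 24389 UMIs against 13493 and 13661.5 in those without. They had less CD14 (355 and 418 CPM against 662 and 836), APOE (31.0 and 18.5 against 209 and 103) and CTSL (172 and 380 against 439 and 664) in both organoids, with no test.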

How the data were processed

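Dissociated cells of 2 BG-HFOs were profiled with 10x Chromium 3' chemistry. The authors deposited counts, whole UMIs per gene and barcode from Cell Ranger on GRCh38 with intronic reads included, without normalization. Free RNA removal, depth equalization and the study's own cell filter came later and are not in these counts. Library 32.7 holds 191152562 UMIs and library 33.10 holds 233818881. Free RNA can add UMIs of abundant transcripts to any barcode, and genes with near-identical copies (globins, defensins, HLA genes) are uncertain.

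Barcodes were gated on raw UMIs, each going to the first gate it met, and UMIs were summed per class and organoid. Sums of the 4 myeloid classes were fitted with edgeR 4.0.16 (R 4.3.3; TMM, filterByExpr, quasi-likelihood test, Benjamini-Hochberg over all genes outside the gates, threshold 0.05) with class as the only term. Shares used cells thinned to 3000 UMIs and Clopper-Pearson 95% intervals. On simulated counts with the same design, the test recovered 32% of 2-fold and 100% of 4-fold changes against monocytic cells, and 54% and 100% against neutrophil-lineage cells. The simulation gave every gene 1 common spread (dispersion 0.0312), changed only genes above 20 CPM and had no shared organoid effect. Real genes with a wider spread can be missed at larger changes, so a gene without a call is not shown to differ by less than 4-fold. Classes of 1 organoid share their organoid, so the numbers pair the sums. Their deviations correlated at r = 0.152 to 0.315 over 7249 genes, a description across genes.

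The members, gates and gene lists were chosen with earlier results of these data known. Text names members of 30 lists (442 genes, all matched), and per direction the 10 genes of largest fold change among those called, at 20 CPM or more in the higher class of each organoid and changed alike in both. A few genes were picked after their values were seen and are named as such. The values of a few listed genes are not reported here. Other normalization, filters, gates, thinning, a free RNA subtraction and DESeq2 1.42.0 were tried as alternatives. The subtraction, called free RNA removed here, took an assumed 10% of each class sum in proportion to the summed profile of its library. The amount of free RNA was not measured. Python 3.11.15 with numpy 2.4.6, pandas 2.3.3 and scipy 1.17.1 did the rest. Doublets were not called, the deepest and the mixed barcodes being left out instead as alternatives. Barcode and gene lists without measurements served as labels of the counts.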

Additional observations from a re-analysis of the deposited data

How the results depend on the processing

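The number of macrophages was 643, and between 522 (10 or more C1Q UMIs) and 725 (3 or more) under the alternatives. The counts of called genes depended on the settings. Genes higher than in monocytic cells numbered 178, and 657 with no filter on low counts, 301 with the organoid as replicate block, 72 with only the 2 classes compared in the fit, 115 after thinning to 3000 UMIs per cell, 113 with free RNA removed (an assumed 10%), 797 with all gated classes in the fit and 106 without mixed barcodes. Lower genes numbered 326, and in the same settings 698, 537, 170, 210, 249 (free RNA removed), 553 (all gated classes) and 172 (without mixed barcodes). The removal of mixed barcodes was added after seeing the data. Genes higher than in neutrophil-lineage cells numbered 828, and 1389 with no filter, 1451 with only the 2 classes, 417 after thinning and 1590 with all gated classes. Lower genes numbered 675, and 1029 with only the 2 classes, 426 with DESeq2, 341 after thinning and 1081 with all gated classes. The cause of these shifts was not tested. With the replicate block every gene named for a call kept it in both comparisons, and further genes passed, MHC class II among them.

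Of the genes named for a call, 36 of 81 against monocytic cells and 126 of 163 against neutrophil-lineage cells passed under every alternative with a test in which they were measured. Against monocytic cells 29 calls were lost with only the 2 classes in the fit, 23 without mixed barcodes and 20 with free RNA removed. SPP1 against monocytic cells lost its call with DESeq2, without the deepest cells, with free RNA removed, with all gated classes and without mixed barcodes. Leaving out 1 organoid leaves 1 sum per class and no test. Without 33.10, the fold change counted as moved for 4 of 81 named genes against monocytic cells and 18 of 163 against neutrophil-lineage cells. Without 32.7 it did so for 9 and 25, and 1 further gene, CLC, reversed. The log2 fold change of CLC, macrophages against MPO-high neutrophil-lineage cells, was -3.90, with -3.69 without organoid 33.10 and a reversed 0.78 without organoid 32.7. The monocytic gate of 2 or more UMIs of CD14 and FCN1 was not run, since 17 cells remained in organoid 33.10, under the minimum of 20. The 29 monocytic cells of organoid 33.10 are the smallest group in either comparison.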
